A study of Mus musculus with 6 samples.

Results

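Genes that move cholesterol out of macrophages under the liver X receptors (LXR) were described in cultured mouse macrophages that lacked ALDH2 in addition to the LDL receptor. The set held 9 genes of the 16871 gene numbers listed in the files. They were chosen by name: the receptors Nr1h3 and Nr1h2, the exporters Abca1 and Abcg1, the apolipoproteins Apoe, Apoc1 and Apoc2, the lipid transfer protein Pltp, and the secreted protein Cd5l. All 9 were listed in every library, and 8 held enough counts to be tested.

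RNA came from macrophages grown from the marrow of C57BL/6 mice aged 8 weeks, cultured for 7 days and then given oxidised LDL (oxLDL), a modified lipoprotein that fills macrophages with cholesterol. The DKO group was 3 libraries from double knockout cells without the LDL receptor and without ALDH2 (acetaldehyde dehydrogenase 2), the mitochondrial enzyme that oxidises reactive aldehydes. The LKO group was 3 libraries from LDL receptor knockout cells and served as control, so that both groups lacked the LDL receptor and both received oxLDL. No library without oxLDL or with the receptor intact was analysed here. The labels do not name separate mice or cultures, so that p-values measure the spread between these libraries, which may be technical.

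LXRα, encoded by Nr1h3, and LXRβ, encoded by Nr1h2, are nuclear receptors that bind oxysterols and the cholesterol precursor desmosterol and act on DNA as partners of the retinoid X receptors (RXR). In cholesterol-loaded macrophages they switch on Abca1, Abcg1 and Apoe, whose products hand cholesterol to lipoprotein particles outside the cell. Apoe, Apoc1, Apoc4 and Apoc2 lie side by side as a cluster that LXR controls in macrophages through enhancers lying outside the promoters.

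Each library held between 10760625 and 10987584 expected counts. The deleted Aldh2 stood at 7.13 ± 0.181 FPKM in DKO and 241 ± 6.83 FPKM in LKO (SD, n = 3 each), a log2 fold change of −5.01 (edgeR adjusted p = 4e-24). FPKM scales reads to transcript length and library size, so that levels can be compared between genes. Of 11809 genes tested with the edgeR quasi-likelihood test, 14.3% passed a Benjamini-Hochberg adjusted p of 0.05, 7.42% as higher and 6.88% as lower in DKO.

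The 9 genes spanned a wide range of levels. In DKO the mean FPKM ran from Apoe through Pltp, Cd5l, Nr1h2, Abca1, Apoc2, Abcg1 and Nr1h3 to Apoc1, and in LKO the order was the same. Among neighbours in that order, the libraries of Abcg1 and Nr1h3 overlapped in DKO, and those of Apoc2 and Abcg1 overlapped in LKO. Apoe alone made up between 90.2% and 91.1% of the summed FPKM of the 9 genes in the DKO libraries and between 87.9% and 88.6% in the LKO libraries. Of the 8 genes tested, 3 (37.5%) were higher in DKO at an edgeR adjusted p under 0.05, none was lower, and 5 did not pass, beside the 14.3% of all tested genes that passed. The 3 were Apoe, Apoc2 and Cd5l, and neither receptor, neither exporter nor Pltp passed. DESeq2 called 1 of the 8 (Apoe) beside 10.2% of all genes, and limma on log2(FPKM + 1) called Apoe alone beside 10.6%. The 9 genes were chosen with earlier results of these data known, so that these shares are no test of the set. Over the 8 genes the log2 fold change had a median of 0.17, and over all tested genes one of 0.00. In RNA of whole cultures, fewer cells of a type and less RNA per cell cannot be told apart.

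**Figure D1:**
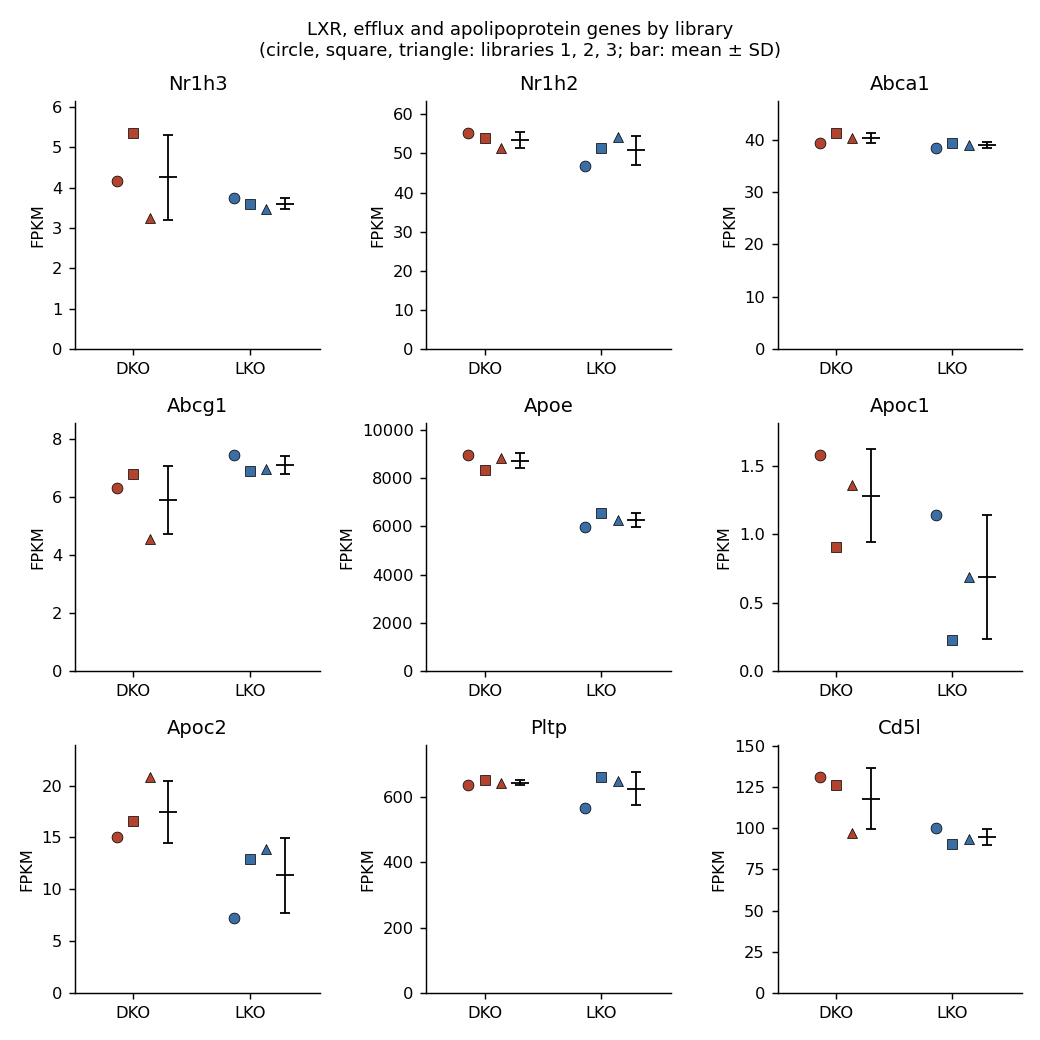
FPKM (linear axis from 0) of each of the 9 genes in each library, with DKO left and LKO right; points are single libraries and bars the mean ± SD of 3. The DKO libraries of Apoe lie between 8351 and 8953 FPKM, above the LKO libraries between 5973 and 6537, while those of Abca1 overlap.

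Of the receptors, Nr1h2 was the more abundant per length in each library. Nr1h2 (LXRβ) stood at 55.2, 53.9 and 51.3 FPKM in the DKO libraries, against 46.8, 51.3 and 54.2 FPKM in the LKO libraries. The groups overlapped, with the lowest value in LKO library 1. Its log2 fold change was 0.08 with a 95% interval from −0.03 to 0.20 (edgeR adjusted p = 0.395). Nr1h3 (LXRα), which in mice as in humans is the isoform richest in liver and macrophages, stood at 4.16, 5.35 and 3.26 FPKM in the DKO libraries, against 3.74, 3.6 and 3.47 FPKM in the LKO libraries. DKO library 2 was the highest and DKO library 3 the lowest of the 6, so that the LKO values lay inside the DKO range. The log2 fold change was 0.26 with a wide interval, from −0.09 to 0.60 (edgeR adjusted p = 0.362), at counts between 64 and 107 reads. Nr1h3 overlaps Acp2, which held up to 4862 counts, and without a stated strand setting the reads of the overlap cannot be told apart. The ratio of Nr1h2 to Nr1h3 was 13 ± 2.84 in DKO and 14.1 ± 1.56 in LKO (FPKM ratio, SD, n = 3 each), and the groups overlapped.

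Abca1 passes cholesterol and phospholipid to lipid-poor apolipoprotein A-I, and its promoter holds the best known LXR site of macrophages. The window of 250 bases before to 50 after its start was read from RefSeq (GRCm38.p6, chr4:53159846-53160145, minus strand) and is shown because Abca1 is the classical readout of the receptors. Capitals mark the best match, on either strand, to a direct repeat of the receptor half-site with a spacer of 4 bases, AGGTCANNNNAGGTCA, with mismatches counted over its 12 fixed bases.
Abca1: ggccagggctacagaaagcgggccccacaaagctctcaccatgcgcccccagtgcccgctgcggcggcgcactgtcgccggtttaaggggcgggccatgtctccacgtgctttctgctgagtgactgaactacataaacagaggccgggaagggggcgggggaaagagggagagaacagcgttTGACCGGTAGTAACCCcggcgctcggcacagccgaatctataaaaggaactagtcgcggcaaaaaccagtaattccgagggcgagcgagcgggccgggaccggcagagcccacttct
The capitals lie from −67 to −52 relative to the start and read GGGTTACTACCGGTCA on the opposite strand, with 3 mismatches. A match with at most 3 mismatches was found in 21.9% of all 32841 promoter windows, and one with at most 2 in 3.02%. Abca1 was the only 1 of the 7 genes with a window in the table to reach 3 mismatches; the windows of Nr1h2, Nr1h3, Apoe, Apoc2 and Cd5l had 4 at best, a number that 76.9% of all windows reach, and that of Pltp had 5. Abcg1 and Apoc1 had no window in the table. Such a match is a description of the letters and not evidence of binding in these cells.

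Abca1 varied little between libraries. It stood at 39.3, 41.2 and 40.2 FPKM in the DKO libraries, against 38.4, 39.4 and 39.1 FPKM in the LKO libraries. The groups overlapped by DKO library 1 and LKO library 2. The log2 fold change was 0.06 with a 95% interval from −0.03 to 0.14, so that a difference beyond 1.1-fold lay outside the interval (edgeR adjusted p = 0.414). Abcg1, which exports cholesterol to mature high-density lipoprotein, stood at 6.31, 6.79 and 4.57 FPKM in the DKO libraries, against 7.45, 6.91 and 6.96 FPKM in the LKO libraries. All DKO values were below all LKO values, most of all in DKO library 3. The log2 fold change was −0.26 with a 95% interval from −0.46 to −0.06, at an unadjusted p of 0.0129 and an adjusted p of 0.0763 in edgeR, so that Abcg1 did not pass. Without DKO library 2 it passed (log2 fold change −0.37, edgeR adjusted p = 0.0159), and without DKO library 3 the log2 fold change was −0.11 (edgeR adjusted p = 0.447). The ratio of Abca1 to Abcg1 was 6.23, 6.07 and 8.80 in the DKO libraries and 5.16, 5.71 and 5.61 in the LKO libraries. These ratios did not overlap between the groups; no test was made on them.

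**Figure D2:**
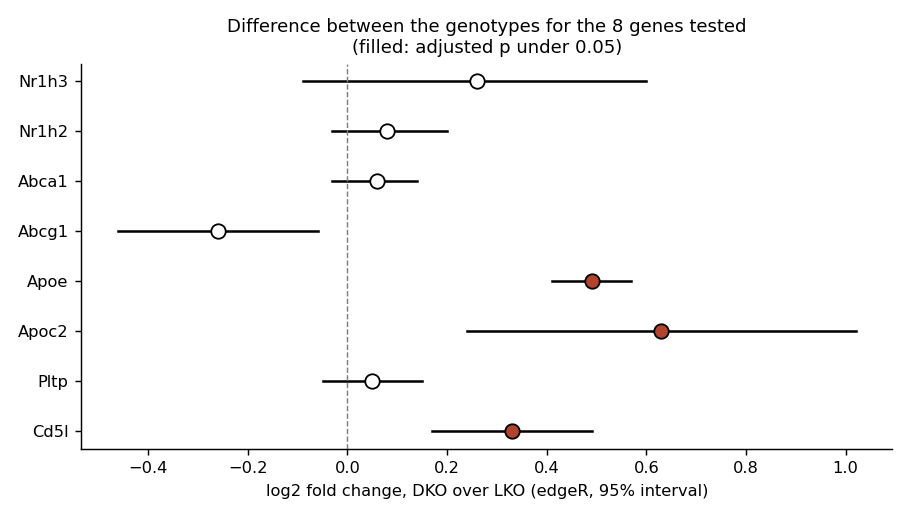
Log2 fold change of DKO over LKO (points, edgeR) with its 95% interval (lines) for the 8 genes tested; filled points have an adjusted p under 0.05. Apoe, Apoc2 and Cd5l lie at 0.49, 0.63 and 0.33, and the interval of Abca1 runs from −0.03 to 0.14.

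Among the apolipoproteins, Apoe rose with the smallest p of the set. ApoE is the protein with which macrophages load cholesterol onto lipoproteins that liver cells take up. Apoe stood at 8953, 8351 and 8852 FPKM in the DKO libraries, against 5973, 6537 and 6259 FPKM in the LKO libraries. The groups were far apart relative to their spread, with a gap between 6537 and 8351 FPKM. The rise was 1.4-fold, with a 95% interval from 1.33 to 1.48 (edgeR log2 fold change 0.49, SE 0.04, adjusted p = 9.11e-09). Apoe took 1.14%, 1.06% and 1.13% of all counts in the DKO libraries and 0.761%, 0.833% and 0.797% in the LKO libraries. By counts it was the first or second most abundant gene in the DKO libraries and ranked between 5 and 7 in the LKO libraries. By FPKM its rank hardly differed, at 4 in each DKO library and 4 or 5 in the LKO libraries, below the ferritin genes and Tmsb4x. Quantile normalization, which gives genes of equal rank equal values in all libraries, brought the log2 fold change to 0.04 (limma adjusted p = 0.509).

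Apoc2, the cofactor that lipoprotein lipase needs to break down triglycerides, also rose. It stood at 15.03, 16.6 and 20.8 FPKM in the DKO libraries, against 7.23, 12.9 and 13.9 FPKM in the LKO libraries. The groups did not overlap, LKO library 1 being the lowest and DKO library 3 the highest. The counts behind these values were 107, 124 and 160 reads in DKO and 52, 97 and 103 reads in LKO. The fold change was 1.55 with a 95% interval from 1.18 to 2.03 (edgeR log2 fold change 0.63, SE 0.19, adjusted p = 0.0274). Without LKO library 1 the log2 fold change was 0.37 (edgeR adjusted p = 0.138), without DKO library 3 it was 0.45 (edgeR adjusted p = 0.17), and DESeq2 gave an adjusted p of 0.327. Apoc1, an inhibitor of lipoprotein uptake and of lipid-modifying enzymes, was at the limit of detection and was not tested. It held 7, 4 and 6 reads in the DKO libraries and 5, 1 and 3 reads in the LKO libraries, 17 against 9 in sum, so that a difference was not detectable at this depth (edgeR without a count filter, adjusted p = 0.509).

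The promoter window of Apoc2 (GRCm38.p6, chr7:19677892-19678191, minus strand) is shown because it was the only 1 of those read that held exact copies of the single half-site AGGTCA, which also forms each arm of the repeat. Capitals mark its 2 copies.
Apoc2: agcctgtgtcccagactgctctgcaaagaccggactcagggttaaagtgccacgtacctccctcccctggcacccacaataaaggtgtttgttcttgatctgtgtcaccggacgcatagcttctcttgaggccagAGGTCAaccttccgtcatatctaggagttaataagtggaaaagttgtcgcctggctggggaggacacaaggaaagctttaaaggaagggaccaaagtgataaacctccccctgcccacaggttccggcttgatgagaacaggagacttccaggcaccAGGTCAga
They begin at −115 and 43 relative to the start, both on the strand of the gene. At least 1 copy on either strand was found in 16.3% of all promoter windows. Each of the 3 listed windows of Apoe had 4 mismatches at best to the full repeat, and the match of one is shown in capitals with 12 bases on either side, from the window chr7:19698349-19698648 (minus strand).
Apoe: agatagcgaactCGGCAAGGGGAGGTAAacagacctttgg
It lies from −17 to −2 relative to that start.

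Genes next to Apoe in the gene order of GRCm38 were compared with it, since Apoe, Apoc1, Apoc4 and Apoc2 are neighbours. Of the 10 tested genes nearest to Apoe, 2 were higher in DKO and none was lower, beside 7.42% higher and 6.88% lower of all tested genes. They were Apoc2, already counted among the 9 genes, and Clptm1, an endoplasmic reticulum membrane protein, at a log2 fold change of 0.20 (edgeR adjusted p = 0.0072). In DESeq2, 1 of the 10 passed, beside 10.2% of all tested genes. Tomm40, the mitochondrial import channel gene next to Apoe, had a log2 fold change of −0.03 (edgeR adjusted p = 0.875). Apoc4 was listed in LKO library 3 alone, at 0.19 FPKM. These neighbours were looked at after the values of Apoe were known. None of the 9 genes lies on chromosome 5, where Aldh2 lies.

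Pltp, which moves phospholipid between lipoproteins and is an LXR target in macrophages, was the second most abundant of the 9 genes. It stood at 635, 652 and 643 FPKM in the DKO libraries, against 567, 661 and 648 FPKM in the LKO libraries. The groups overlapped, and LKO library 1 was the lowest. The log2 fold change was 0.05 with a 95% interval from −0.05 to 0.15 (edgeR adjusted p = 0.554). Pltp overlaps Ctsa, a lysosomal protease gene, and reads of the overlap cannot be told apart without a strand. The ratio of Apoe to Pltp was 14.1, 12.8 and 13.8 in the DKO libraries and 10.5, 9.89 and 9.65 in the LKO libraries, so that the ratio was higher in each DKO library than in any LKO library; no test was made on it.

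Cd5l encodes a secreted protein, also called AIM, which in mice is an LXR target that protects macrophages from dying. It stood at 131, 126 and 96.9 FPKM in the DKO libraries, against 100.1, 90.2 and 93.5 FPKM in the LKO libraries. DKO library 3 lay below LKO library 1, so that the groups overlapped, and only DKO libraries 1 and 2 were above all LKO libraries. The fold change was 1.26 with a 95% interval from 1.13 to 1.4 (edgeR log2 fold change 0.33, SE 0.08, adjusted p = 0.00394). DESeq2 gave an adjusted p of 0.108 and limma on log2(FPKM + 1) an adjusted p of 0.0986. Without DKO library 1 the edgeR adjusted p was 0.04997, and without DKO library 3 the log2 fold change was 0.45 (edgeR adjusted p = 2.45e-06). Its promoter window gave no half-site, which says only that these letters are not in it.

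The DKO libraries did not move together over these genes. DKO library 3 was the lowest of the DKO libraries for Nr1h3, Nr1h2, Abcg1 and Cd5l and the highest for Apoc2, while DKO library 2 was the lowest for Apoe. Abcg1, Apoe and Apoc2 were without overlap between the groups, 3 of the 8 tested, beside 29.6% of all tested genes.

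Beyond the 9 genes, 9 lists of other genes with known roles were followed, 136 names in all. Of these, 84 were tested, a gene in 2 lists counted once. All lists but that of resident macrophage genes concerned LXR, lipoproteins or cholesterol handling. Of the 84, 17 were higher and 13 lower in DKO (35.7%, beside the 14.3% of all tested genes), and 54 did not pass. The resident macrophage genes are part of these counts, with 7 higher and 1 lower of 11 tested (72.7%). The median log2 fold change of the 84 was 0.04. The lists were chosen with earlier results of these data known, so that these shares are no test of the pathway. Of the 17 tested RXR partners and coregulators, 2 rose and none fell. Rxra, an RXR gene, stood at 30.1 ± 0.834 FPKM in DKO and 22.97 ± 0.524 FPKM in LKO (SD, n = 3 each, log2 fold change 0.40, edgeR adjusted p = 3.07e-06). Rxrb, an RXR gene at a similar level, did not pass. It stood at 28 ± 0.193 FPKM in DKO and 26.93 ± 0.351 FPKM in LKO (log2 fold change 0.08, edgeR adjusted p = 0.408). The acetyltransferase gene Crebbp stood at 9.35 ± 0.906 FPKM in DKO and 7.93 ± 0.624 FPKM in LKO, a call that 8 of 17 other settings lost.

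Of the enzymes that make or remove the ligands, 5 were tested and 1 was lower (20%, beside the 14.3% of all tested genes). The most abundant of them, Hsd3b7, an enzyme that oxidises oxysterols on the way to bile acids, stood at 20.5 ± 1.28 FPKM in DKO and 20.7 ± 2.05 FPKM in LKO (edgeR adjusted p = 0.981).

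Other genes known as LXR targets moved in both directions. Of 16 tested, 2 rose and 7 fell (56.2%, beside the 14.3% of all tested genes), and the median log2 fold change was −0.09. One riser was Mertk, a receptor for dying cells (31.6 ± 1.63 FPKM in DKO and 22.8 ± 0.497 FPKM in LKO, edgeR adjusted p = 1.34e-06). The fallers of smallest p were the desaturase gene Scd2 (log2 fold change −1.02, edgeR adjusted p = 1.64e-08), the fatty acid synthase gene Fasn (−0.55, edgeR adjusted p = 5.83e-07) and the lipoprotein lipase gene Lpl. Scd2 and Fasn make fatty acids and are controlled by SREBP factors as well as by LXR. Lpl, the enzyme that ApoC-II activates, stood at 240.3 ± 12.4 FPKM in DKO and 304 ± 12.1 FPKM in LKO (log2 fold change −0.33, edgeR adjusted p = 1e-05), opposite in sign to Apoc2.

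Of 6 tested exporters besides Abca1 and Abcg1, 1 was higher (16.7%, beside the 14.3% of all tested genes). It was the transporter gene Abca9 (26.2 ± 1.47 FPKM in DKO and 22.2 ± 1.65 FPKM in LKO, edgeR adjusted p = 0.00449), a call that 6 of 17 other settings lost. The most abundant, Scarb1, the receptor for high-density lipoprotein, stood at 38.5 ± 0.233 FPKM in DKO and 39.8 ± 1.62 FPKM in LKO (edgeR adjusted p = 0.719). Of 14 other apolipoprotein names only Apoo and Apool, which encode mitochondrial membrane proteins, were high enough to test, and neither passed. Of 13 apolipoprotein L names 8 were listed, and none was high enough to test.

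Of 11 tested genes of lipoprotein remodelling and ApoE receptors, 1 was higher and 3 lower (36.4%, beside the 14.3% of all tested genes). Sorl1, a sorting receptor that binds ApoE, stood at 4.31 ± 0.218 FPKM in DKO and 10.3 ± 0.215 FPKM in LKO (log2 fold change −1.24, edgeR adjusted p = 6.25e-12). The others lower were Lpl, given above, and Lrp8, another ApoE receptor, at 0.403 ± 0.0815 FPKM in DKO and 0.663 ± 0.1 FPKM in LKO (edgeR adjusted p = 0.0204), a call that 5 of its 12 other settings lost, DESeq2 among them. Furin, a proprotein convertase, was higher by a log2 fold change of 0.18 (edgeR adjusted p = 0.0192), a call that 10 of 17 other settings lost.

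Of 18 tested genes of cholesterol traffic and ester turnover, 5 were higher and 2 lower (38.9%, beside the 14.3% of all tested genes). The median log2 fold change was 0.03. Those higher were Nceh1, which frees cholesterol from stored ester (22.8 ± 0.500 FPKM in DKO and 19.4 ± 0.686 FPKM in LKO, edgeR adjusted p = 0.00176), Tspo, Osbpl9 and Stard3, which encode sterol-binding or lipid transfer proteins (log2 fold changes 0.33, 0.23 and 0.18, edgeR adjusted p = 0.00143, 0.00179 and 0.0432), and Lipa, the lysosomal lipase, at a log2 fold change of 0.24 (edgeR adjusted p = 0.000165). Those lower were Stard4, a cholesterol carrier under SREBP control (log2 fold change −0.43, edgeR adjusted p = 0.00125), and Gramd1b, which moves cholesterol from the plasma membrane (−0.21, edgeR adjusted p = 0.0331). The calls of Stard3 and Gramd1b were lost in 15 and 12 of 17 other settings.

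**Figure D3:**
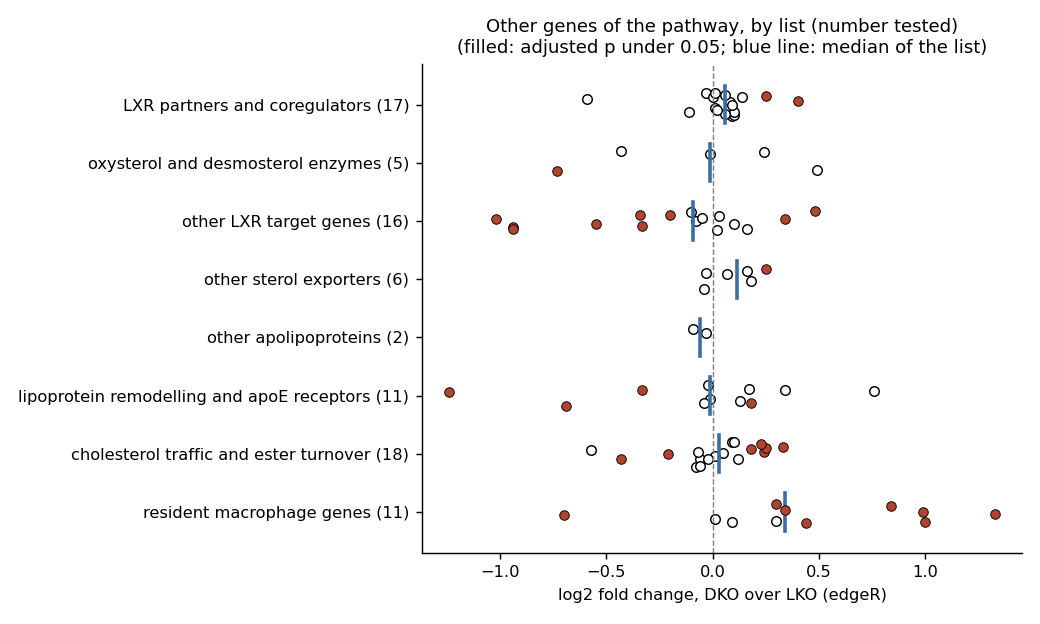
Log2 fold change of DKO over LKO (edgeR) for the tested genes of 8 lists, resident macrophage genes among them. Filled points passed and blue lines are list medians. The list of resident macrophage genes has its median at 0.34 and that of other LXR targets at −0.09.

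Tested genes that share with Cd5l a high level in resident tissue macrophages were mostly higher. Of 16 names, 11 were tested. Of these, 7 rose and 1 fell (72.7%, beside the 14.3% of all tested genes), and the median log2 fold change was 0.34. The names not tested, Vsig4, Timd4, Clec4f, Lyve1 and Cd209a, did not exceed 0.26 FPKM in any library. Slc40a1, the iron exporter, stood at 31.8 ± 1.38 FPKM in DKO and 16.1 ± 0.806 FPKM in LKO (edgeR adjusted p = 7.34e-11). Siglec1, a sialic acid receptor that interferon also induces, stood at 140.0 ± 24.5 FPKM in DKO and 70.7 ± 13.7 FPKM in LKO (edgeR adjusted p = 5.05e-07). Folr2, a folate receptor, stood at 96.1 ± 1.59 FPKM in DKO and 54.15 ± 3.46 FPKM in LKO (edgeR adjusted p = 9.94e-10). The faller was Cd209f, a lectin gene (log2 fold change −0.70, edgeR adjusted p = 9.95e-08). Marco, the most abundant, had a log2 fold change of 0.01 (edgeR adjusted p = 0.93).

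Markers of other cells of marrow cultures moved with the genotype beside these results. The counts of markers called stand beside 7.42% higher and 6.88% lower of all tested genes. The summed FPKM of 10 macrophage markers lay between 11210 and 12380 in the DKO libraries and between 10020 and 10730 in the LKO libraries, and 5 of the 10 were higher and 1 lower in DKO. The summed FPKM of 16 neutrophil markers lay between 383.6 and 425.5 in DKO and between 599.6 and 660.6 in LKO, with 9 of 14 tested lower. Neutrophil sums were lower in each DKO library than in any LKO library. The macrophage sums turned on Lyz2, the lysozyme gene, at 7616 ± 580.5 FPKM in DKO and 6105 ± 337 FPKM in LKO. Without Lyz2 they lay between 4235 and 4281 in DKO and between 4290 and 4344 in LKO, the other way round, and the next most abundant marker, Adgre1 (F4/80), was lower in DKO (log2 fold change −0.13, edgeR adjusted p = 0.0182). For 12 stromal and fibroblast markers it lay between 75.5 and 99.9 in DKO and between 46.6 and 52.7 in LKO, with 7 of 9 tested higher. For 10 B lineage markers it lay between 89.4 and 99.0 in DKO and between 113.8 and 128.8 in LKO, with 5 of 6 tested lower, and the early B lineage genes Vpreb1 and Igll1 were listed in no library. These groups did not overlap either, with stromal sums higher and B lineage sums lower in DKO, and neutrophil, stromal and B lineage sums kept these directions without their most abundant genes, an omission chosen after the values were seen. For 8 dendritic cell markers it lay between 1.75 and 2.87 in DKO and between 2.45 and 4.19 in LKO. Of 8 markers of hepatocytes, a cell type rich in apolipoproteins, Alb, Ttr, Fga, Fgb and Ahsg were listed in no library, and the sum of the list was at most 0.62 FPKM in DKO and at most 0.95 FPKM in LKO. Of 6 adipocyte markers, Adipoq (adiponectin), Plin1 (perilipin 1), Lep and Cfd were likewise listed in no library. The others, Fabp4 and Pparg, summed to between 5.23 and 6 FPKM in DKO and between 6.39 and 7.24 FPKM in LKO. Pparg was lower in DKO (log2 fold change −0.46, edgeR adjusted p = 0.02), and Fabp4 was not tested. The 4 erythroid markers in the files summed to at most 2.78 FPKM in a DKO library and 2.37 FPKM in an LKO library. The part of neutrophil, B lineage and stromal cells in the levels of Apoe, Apoc2 and Cd5l was not tested.

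**Figure D4:**
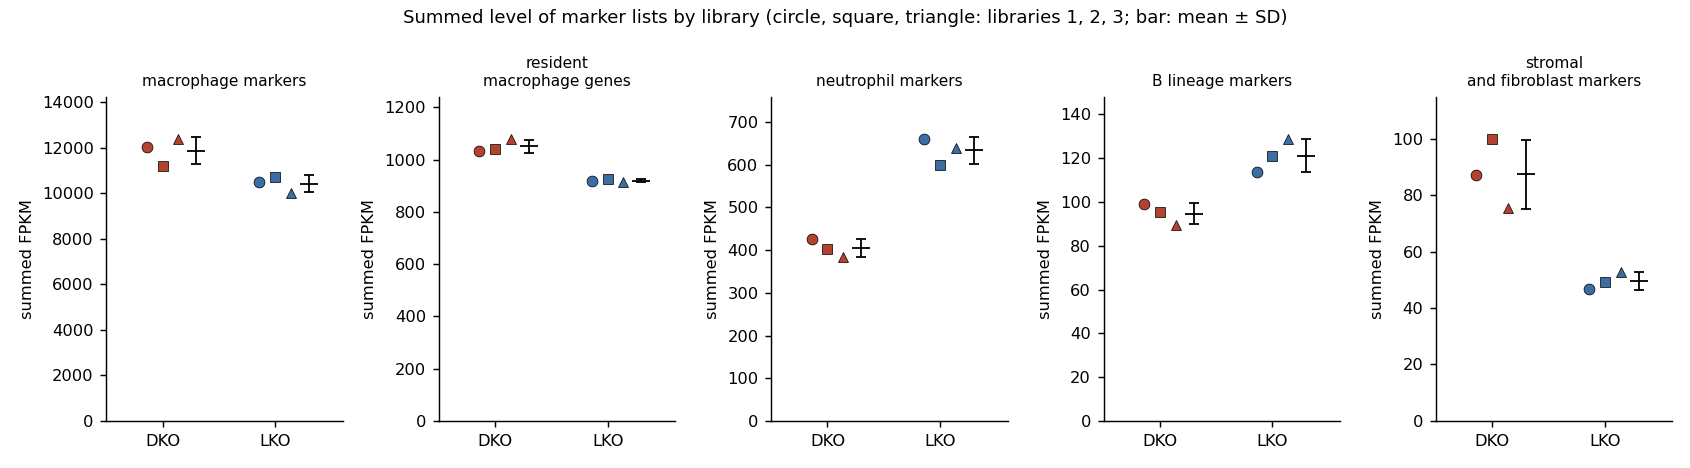
Summed FPKM (linear axis from 0) of 5 marker lists in each library, DKO left and LKO right, with the mean ± SD of 3. The neutrophil sum is at most 425.5 in DKO and at least 599.6 in LKO, and the stromal sum at least 75.5 in DKO and at most 52.7 in LKO.

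For each of the 3 genes that rose, the closest patterns were sought among tested genes with a mean of at least 10 FPKM. Likeness was the root-mean-square difference of log2 CPM (counts scaled to library size), each gene centred on its own mean, over the 6 libraries. Closest to Apoe were Pla2g7, which encodes a lipoprotein-bound phospholipase that breaks down oxidised phospholipids (difference 0.0361), Tmem140 (0.0378) and Il18bp, an inhibitor of interleukin-18 (0.0383). Pla2g7 stood at 186 ± 8.53 FPKM in DKO and 135 ± 5.81 FPKM in LKO (SD, n = 3 each). Closest to Apoc2 were Cebpb, a myeloid transcription factor (0.158), H2-Q5, whose reads can be shared with near-identical class I genes (0.175), and Xaf1, an interferon-induced gene (0.23). Cebpb stood at 48.5 ± 3.89 FPKM in DKO and 32.2 ± 7.25 FPKM in LKO (SD, n = 3 each). Closest to Cd5l were among others the sialyltransferase gene St3gal4 (0.097) and Rhoc (0.1). Of these, St3gal4 passed (edgeR adjusted p = 0.00264), while Rhoc did not (edgeR adjusted p = 0.121).

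**Figure D5:**
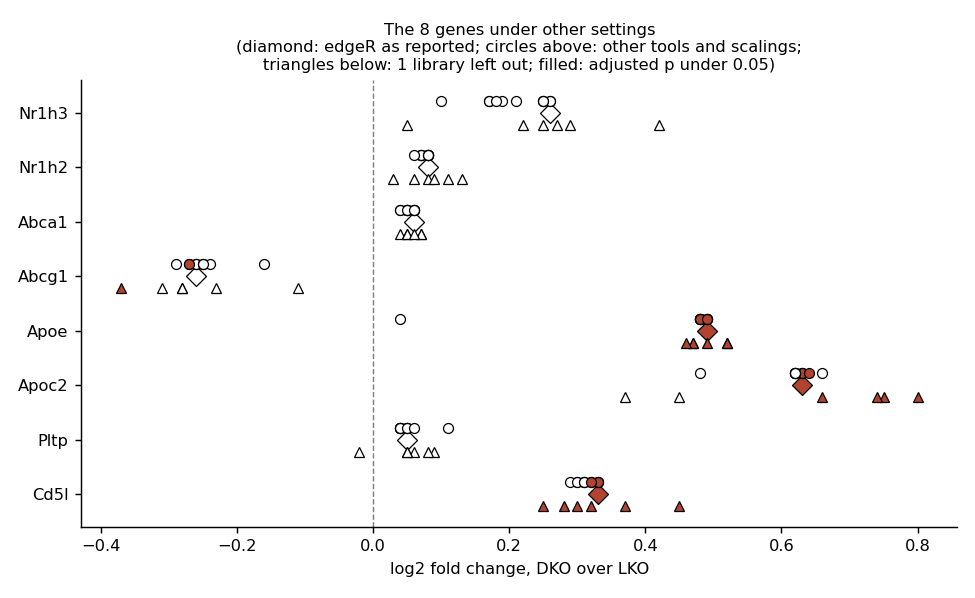
Log2 fold change of the 8 tested genes as reported (diamonds), with other tools and scalings (circles) and with 1 library left out (triangles); filled symbols have an adjusted p under 0.05. Apoe keeps its call in 16 of 17 settings, and Apoc2 and Cd5l in 8 and 10.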

How the data were processed

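Per the file headers, each library's deposited table gives an expected count, an FPKM and a transcript length per NCBI gene number. The deposited expected counts estimate the reads of a gene and carry no scaling, and the deposited FPKM values were scaled by the authors to transcript length and library size. The submitters' processing notes name Bowtie 0.12.2 and the mm8 genome. Counting tool, read length and strand: not given in the sources used here. The lowest FPKM listed is 0.01, and genes that a library does not list were set to 0. Symbols came from RefSeq on GRCm38.p6 (16832 of 16871 gene numbers matched), which is not the build of the files, and promoter sequences from RefSeq on the same assembly.

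Expected counts, rounded to whole numbers, went into the quasi-likelihood test of edgeR 4.0.16 in R 4.3.3 (filterByExpr, TMM, Benjamini-Hochberg over 11809 genes, threshold 0.05), checked on simulated data. Each standard error was taken from the F statistic of the fold change, and each 95% interval from the t distribution. Means ± SD are of deposited FPKM over 3 libraries. Between pairs of libraries, the chi-square per degree of freedom over genes with at least 20 reads in the pair was at least 1.68 within groups. That is more than counting noise, but it does not show that the libraries come from separate mice. Each library counted as 1 sample. The common biological coefficient of variation of the edgeR fit was 0.0413. Intervals cover the spread between libraries. Alternatives used DESeq2 1.42.0 and limma 3.58.1 on log2(FPKM + a pseudocount of 0.1, 1 or 5), with or without a filter that asks 3 libraries for an FPKM of 1 or more; fold changes on that scale understate the change of low genes.

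The members and lists were chosen with earlier results of these data known. Named from each list are up to 4 genes of smallest p, all genes of a direction with 5 or fewer, and the most abundant. Rxrb and the resident macrophage genes too low to test were named outside this rule. The files held 184 of the 210 listed names. Some genes that the rule selects are not reported here.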

Additional observations from a re-analysis of the deposited data

How the results depend on the processing

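Over 17 alternatives, Nr1h3, Nr1h2, Abca1 and Pltp did not pass in any, and Apoe passed in all except quantile normalization. Of the 3 genes counted as higher, the fits without a count filter, with DESeq2 size factors and with total counts only gave 3 as well, DESeq2 gave 1 (Apoe), the limma fits gave 1 (Apoe) with pseudocounts of 0.1, 1 and 5, without a filter and with median centring, and quantile normalization gave 0. With 1 library left out, between 2 and 4 of the 8 genes passed. Apoc2 ranged in log2 fold change between 0.37 and 0.80 and Cd5l between 0.25 and 0.45 over all alternatives. Over all genes, 1689 passed as reported, 1205 in DESeq2, 1119, 1108 and 1124 in limma with a pseudocount of 0.1, quantile normalization and median centring, 807 in limma without a filter, and between 1175 and 1481 with 1 library left out. Of the other pathway genes, 30 passed as reported, 16 in limma without a filter, and between 23 and 29 with 1 library left out. Signs turned only for genes near 0 that did not pass in either fit: Pltp at −0.02 without LKO replicate 1 (to 0.09 with another library left out), Hsd3b7 at 0.04, 0.0016 and 0.06 without DKO replicate 2, LKO replicate 1 and LKO replicate 2 (to −0.08 with another left out), Apool at 0.00089 without LKO replicate 1, and Marco at −0.00099 with total counts only, −0.005 without DKO replicate 1 and −0.04 without LKO replicate 3. The cause of the differences between tools was not tested.

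Same-numbered libraries did not deviate together (correlations 0.0179, −0.056 and −0.0273 over genes). With 3 libraries per group, such correlations cannot exclude a shared preparation, and the labels name none. Under the replicate block, Apoc2 and Cd5l had edgeR adjusted p of 0.00468 and 0.00184. With the replicate block, 1553 genes passed, 4 of the 8 genes did and 30 other pathway genes did. Abcg1 was lower under the block (log2 fold change −0.27, edgeR adjusted p = 0.0463). Depth limits Apoc1, with at most 7 reads in a library, and Nr1h3, with at most 107.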

Other observations

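The genes beside the other members in the GRCm38 gene order were also read, 10 tested neighbours each. Over all tested genes, 14.3% passed in edgeR and 10.2% in DESeq2. Next to Cd5l lie Fc receptor-like genes, of which Fcrl1 and Fcrl5, known from B cells, were both lower in DKO at a log2 fold change of −0.43 (edgeR adjusted p = 0.000452 and 5.05e-07), opposite in sign to Cd5l. Fcrls, a microglia and macrophage gene of the same family, had a log2 fold change of 0.00 (edgeR adjusted p = 0.958). The cell adhesion gene Kirrel was higher by a log2 fold change of 0.72 (edgeR adjusted p = 0.025), and the 6 remaining neighbours did not pass. Around Nr1h2, Atf5 and Nup62 were higher (log2 fold changes 0.52 and 0.31, edgeR adjusted p = 9.61e-06 and 0.000357). Spib and Il4i1 were lower (−0.75 and −1.83, edgeR adjusted p = 5.08e-07 and 0.0251), the last of which may share reads with the neighbouring Il4i1b. Around Abca1, Smc2 and Tmem38b were lower (−0.34 and −0.28, edgeR adjusted p = 0.00438 and 0.00497). Around Pltp, Snx21 was higher (0.33, edgeR adjusted p = 0.0472). Around Abcg1, 0 of 10 passed in edgeR, 1 had an unadjusted p under 0.05, and 0 passed in DESeq2. Of the 10 neighbours each, DESeq2 passed 3 around Nr1h2, 2 around Abca1, 2 around Cd5l, 1 around Nr1h3 and 0 around Pltp. Next to Nr1h3, Rapsn, which encodes a scaffold of acetylcholine receptors, was lower by a log2 fold change of −0.88 (edgeR adjusted p = 8.54e-05), and the other 9 did not pass. These genes were looked at after the values of the members were known.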
